A study of Mus musculus with 6 samples.

Results

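The miR-344 family was followed in small RNA libraries from mouse pancreatic islets, the hormone-secreting cell clusters of the pancreas. The members were all miRNA rows of the count table whose names begin with miR-344 and which held at least 10 reads over the 6 libraries. This gave 8 members of 1011 rows. The family was chosen by the measured HFD level of mmu-miR-344d-3p, which lay above its NCD level in earlier results of these data, so its own diet difference is described here without a test. The question was whether that difference extends to the other 7 members. The last member inside the minimum, miR-344h-3p, held 10 reads, and the 1 row outside it, miR-344f-3p, held 2.

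Mice were fed the diet labelled HFD or the diet labelled NCD, with 3 libraries each. The labels describe the material as primary islets and give no strain, age, sex or length of feeding, and they do not say whether a library came from 1 animal or a pool. The p-values therefore measure the spread between these libraries, which may be technical. The libraries held 9431818 to 11059628 counts in HFD and 7166712 to 11172255 in NCD. Levels are CPM values, counts scaled to a common library size, on library totals adjusted by the trimmed mean of M-values (TMM). The factor was 1.73 for NCD 3 and between 0.84 and 0.995 for the other 5 libraries, so each value in NCD 3 is sensitive to this scaling. The islet endocrine miRNA miR-375-3p marks the labelled tissue and had 334685 ± 93368 CPM in HFD libraries and 340196 ± 152281 CPM in NCD libraries (SD, n = 3 each).

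miRNAs are cut from hairpin precursors and guide silencing complexes to messenger RNAs that pair with the seed, bases 2 to 8 counted from the 5′ end. Each hairpin can give a strand from its 5′ side (5p) and from its 3′ side (3p), of which usually 1 accumulates. The mouse miR-344 hairpins form a tandem array on chromosome 7 near Ndn, Magel2 and Mkrn3, imprinted genes expressed from the paternal copy and belonging to the mouse counterpart of the Prader-Willi region. The family is best known from the embryonic mouse brain, and its role in islets is not established.

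The mature sequences are shown because the seeds group the members and because several members differ by few bases. They are from the deposited table and were identical to the RefSeq entries (GRCm38.p6). Capitals mark the seed.
miR-344d-3p: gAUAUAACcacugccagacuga
miR-344e-3p: gAUAUAACcaaagccugacuau
miR-344h-3p: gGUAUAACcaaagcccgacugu
miR-344-3p: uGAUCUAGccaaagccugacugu
miR-344c-3p: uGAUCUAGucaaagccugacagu
miR-344b-3p: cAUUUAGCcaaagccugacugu
miR-344g-3p: cAGGCUCUagccaggggcuuga
miR-344d-3-5p: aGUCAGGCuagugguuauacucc

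The 8 members carried 6 seeds. miR-344d-3p and miR-344e-3p shared 1 seed and miR-344-3p and miR-344c-3p another. miR-344d-3p and miR-344e-3p matched at 17 of 22 positions. They differed by C11A, U12A, A16U, G21A and A22U, written with the miR-344d-3p base first and numbered from its 5′ end, all outside the seed. miR-344-3p and miR-344c-3p matched at 21 of 23 positions, with the differences C9U and U21A. miR-344-3p and miR-344b-3p matched at 20 of 22 positions when shifted by 1 base. miR-344e-3p matched miR-344-3p (shifted by 1 base) and miR-344h-3p at 19 of 22 positions each, more than it matched miR-344d-3p. The treatment of reads that match several members is not stated in the labels or headers, so small exchanges between these near-identical rows cannot be told apart from their own levels. Outside the family, miR-410-3p (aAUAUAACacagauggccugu) from chromosome 12 has the seed of miR-344d-3p, and miR-7070-3p, with 4 reads, has that of miR-344g-3p.

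The family lies on the minus strand of chromosome 7, from 61681515 to 62085310 (GRCm38), a span of 404 kb. The 15 hairpins counted here are those named Mir344 or holding a listed miR-344 sequence, 13 of them in RefSeq, and GENCODE annotates further miRNA genes with numbers only inside the span. The miR-344d-3p sequence is present in 5 hairpins: Mir344d-1 (61683124 to 61683192), Mir344d-2 (61685272 to 61685351), Mir344d-3 (61726249 to 61726328) and the GENCODE genes Gm23962 and Gm23490. Its count is therefore the sum of up to 5 loci. Mir344e lies at 61735537 to 61735602, so all hairpins with this seed sit within the first 54.02 kb. miR-344-3p comes from Mir344 (61877770 to 61877864) and Mir344-2 (61940027 to 61940106), and miR-344c-3p from Mir344c (61837311 to 61837402). Mir344d-3, Mir344e, both Mir344h copies, Mir344b, Mir344c and Mir344 overlap the long noncoding RNA gene A230057D06Rik, while Mir344-2 and Mir344g overlap A330076H08Rik. Mir344d-1 and Mir344d-2 lie outside other annotated genes. The nearest protein-coding gene is Ndn, 261 kb beyond the end of the array, and 0 other miRNAs of the table map within 1 Mb.

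**Figure D1:**
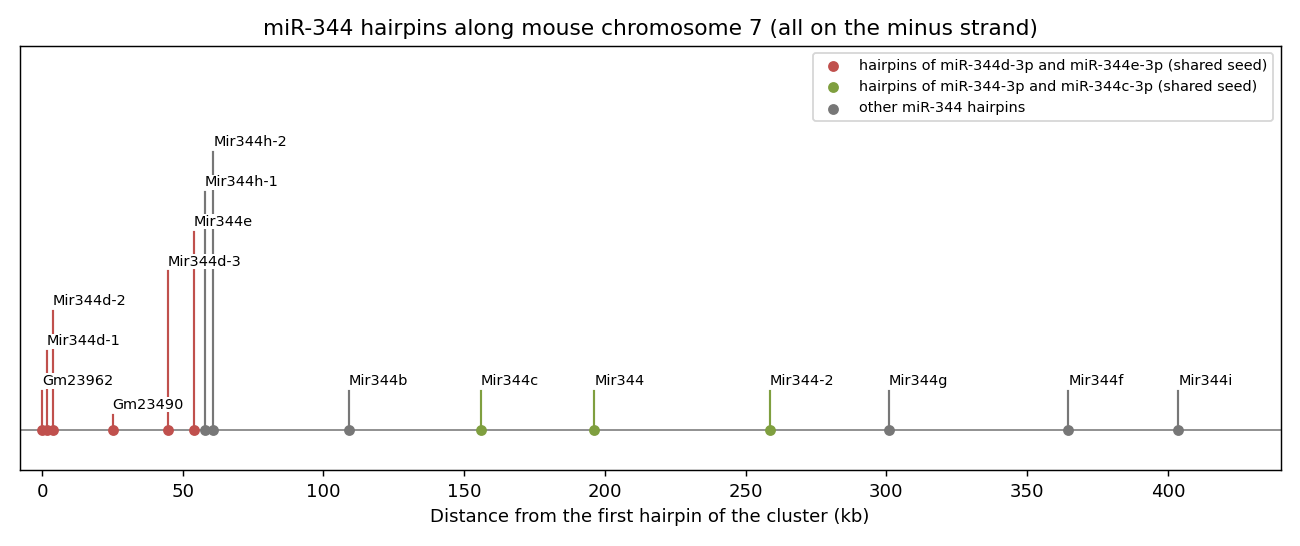
Positions of the 15 hairpins named Mir344 or holding a listed miR-344 sequence along the array, as distance in kb from the hairpin with the lowest coordinate; colours mark the hairpins of the 2 seed groups and stem heights only separate the names. The hairpins of miR-344d-3p and miR-344e-3p lie within the first 54.02 kb, and those of miR-344-3p and miR-344c-3p lie farther along.

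miR-344d-3p, the 3p strand made from the Mir344d hairpins, was the most abundant member by total reads and the value that led to the choice of the family. It had 58.6, 112 and 127 CPM in HFD replicates 1, 2 and 3, against 39.8, 34.1 and 23.03 CPM in NCD replicates 1, 2 and 3. Every HFD library lay above every NCD library, with HFD 1 nearest to them. The same held for 10.3% of all tested miRNAs. The HFD mean was 99.3 ± 36.1 CPM and the NCD mean 32.3 ± 8.51 CPM (SD, n = 3 each). The log2 fold change was 1.63 ± 0.38 (SE), or 3.10-fold, where the median over the 406 miRNAs that passed the filter on low counts was 0.02. It was 1.35 without HFD 3 and 1.42 without NCD 3. On plain library totals the diets still did not overlap, with 49.3, 94.1 and 127 CPM in HFD against 37.4, 29.8 and 39.9 CPM in NCD. The share of all tested miRNAs without overlap on that scale was not computed.

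miR-344-3p, the second most abundant member and the 3p strand of Mir344 and Mir344-2, had 25.06, 24.5 and 46.4 CPM in HFD replicates 1, 2 and 3, against 15.1, 18.04 and 23.8 CPM in NCD replicates 1, 2 and 3. The diets did not overlap on this scale, but HFD 2 and NCD 3 differed by under 1 CPM and HFD 3 stood apart from both other HFD libraries. The HFD mean was 31.97 ± 12.5 CPM and the NCD mean 18.99 ± 4.42 CPM (SD, n = 3 each). The log2 fold change was 0.74 ± 0.39 (SE), with an adjusted p of 0.505 in the edgeR quasi-likelihood test, so it did not pass the threshold of 0.05. Over all tested miRNAs, 0.246% were called by that test and 10.3% lay wholly higher in HFD without overlap. On plain library totals the miR-344-3p levels were 21.07, 20.6 and 46.1 CPM in HFD and 14.2, 15.8 and 41.2 CPM in NCD, and the diets overlapped through NCD 3. Its log2 fold change was then 0.32, and it was 0.34 without HFD 3 and 0.94 without NCD 3.

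**Figure D2:**
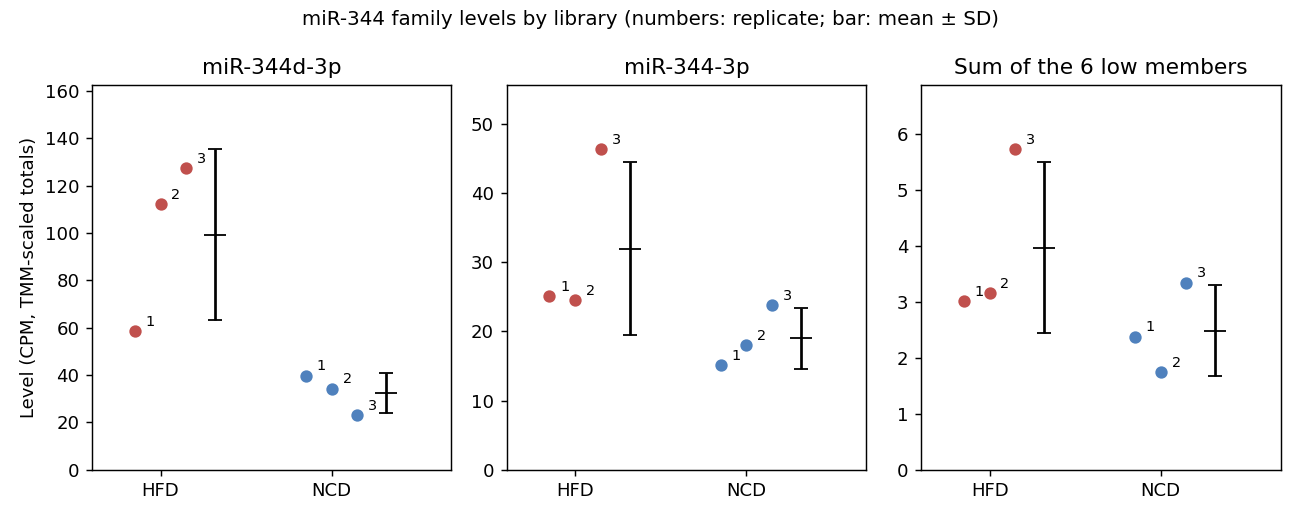
Levels in CPM on TMM-scaled totals (linear axes from 0) of miR-344d-3p, of miR-344-3p and of the sum of the other 6 members, for 3 HFD and 3 NCD libraries; points are libraries with their replicate number, and bars are mean ± SD. The HFD points of miR-344d-3p and miR-344-3p all lie above the NCD points, for miR-344-3p only with TMM scaling and not on plain library totals, while those of the summed low members overlap them.

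The 1 miRNA called by the edgeR test over the whole table lay outside the miR-344 family. Both tested members other than miR-344d-3p missed the threshold. Besides miR-344-3p this was miR-344d-3-5p, the 5p strand of the Mir344d-3 hairpin, and 0 of these 2 had an unadjusted p under 0.05 in edgeR, DESeq2, limma-voom or limma-trend, against 10.1% of all tested miRNAs in edgeR. With a library left out, edgeR gave an unadjusted p under 0.05 for miR-344d-3-5p without NCD 1 and for miR-344-3p without NCD 3, and neither passed after adjustment (edgeR adjusted p = 0.58 and 0.506). miR-344d-3-5p held 5, 11 and 11 reads in HFD replicates 1, 2 and 3, against 12, 1 and 0 reads in NCD replicates 1, 2 and 3. NCD 1 was the highest of all 6 libraries and the other NCD libraries the lowest, so the diets overlapped. Its log2 fold change was 1.12 ± 1.11 (SE), with an edgeR adjusted p of 0.681, and it was 4.12 without NCD 1 and 0.26 without NCD 3. The 5p strand made up 0.942%, 1.22% and 0.779% of the reads of both miR-344d strands in HFD 1, 2 and 3, and 4.29%, 0.299% and 0% in NCD 1, 2 and 3. The 3p strand was the more abundant in all 6 libraries, with the limit that only 1 of the Mir344d 5p strands is among the rows.

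The 5 remaining members held too few reads for the filter and were not tested in the main fit. miR-344e-3p, which shares its seed with miR-344d-3p, had nearly all its reads in HFD libraries. It held 8, 3 and 23 reads in HFD replicates 1, 2 and 3, against 0, 1 and 0 reads in NCD replicates 1, 2 and 3. Every HFD library lay above every NCD library, as did 3.92% of the 255 untested rows with at least 10 reads. Pooled over libraries, HFD islets reached 1.22 CPM and NCD islets 0.0327 CPM. miR-344e-3p met the minimum of 10 reads through its HFD reads alone, so this split is given as a description and supports nothing. A count of 0 allowed up to 0.445 CPM in NCD 1 and 0.213 CPM in NCD 3, where HFD 2 was at 0.379 CPM, so HFD 2 and NCD 1 were not distinguishable at this depth. HFD 3 supplied 23 of the 34 HFD reads, and without it 11 HFD reads stood against 1 NCD read. With no filter on low counts, miR-344e-3p did not pass (edgeR adjusted p = 0.0832), where 0.791% of the 1011 rows passed. Because its HFD reads alone brought it into the family, this p-value cannot decide on a diet difference.

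The other low members did not separate the diets. miR-344c-3p, the near-copy of miR-344-3p, had 3, 6 and 20 reads in HFD replicates 1, 2 and 3, against 4, 11 and 10 reads in NCD replicates 1, 2 and 3. Its HFD mean was 0.970 ± 0.765 CPM and its NCD mean 0.810 ± 0.281 CPM (SD, n = 3 each), a difference smaller than the spread of either diet. miR-344b-3p had 7, 2 and 6 reads in HFD against 0, 4 and 18 in NCD, and miR-344g-3p had 0, 2 and 3 in HFD against 0, 0 and 14 in NCD. For both, NCD 3 was the highest library, and the exact 95% intervals of the HFD to NCD ratio, 0.36 to 1.51 and 0.11 to 1.15, included 1. miR-344g-3p met the minimum of 10 reads through its NCD 3 reads alone, so its interval is a description only. miR-344h-3p, whose seed differs from that of miR-344d-3p by A2G, had 4, 1 and 0 reads in HFD and 0, 0 and 5 in NCD, with an interval of 0.252 to 4.76. These intervals cover counting error only, not the spread between libraries, and without molecular identifiers a read is not a separate molecule.

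**Figure D3:**
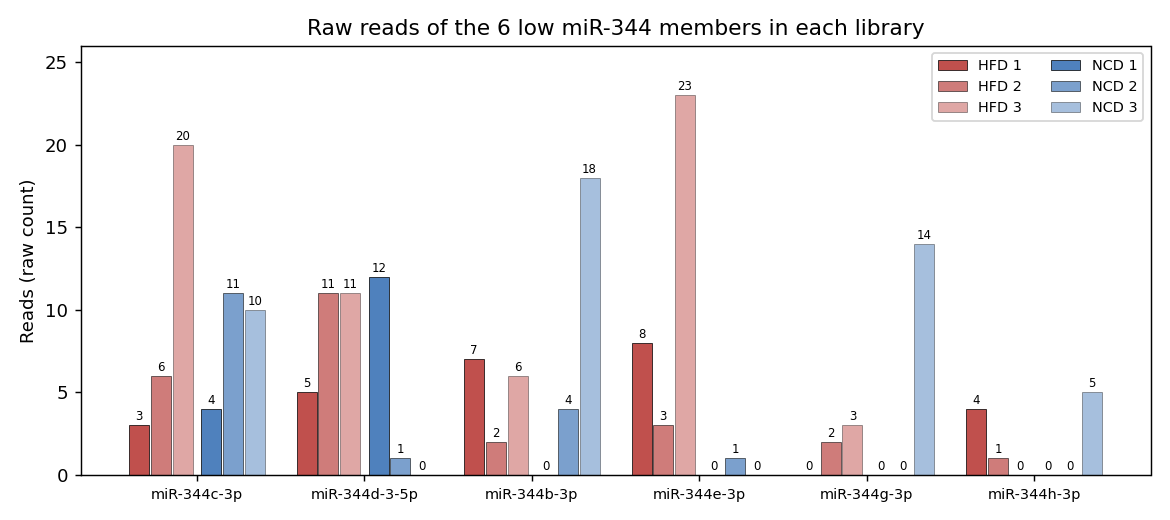
Raw reads of the 6 low members in each library (bars, linear axis from 0, with the count above each bar), HFD libraries in red and NCD libraries in blue. miR-344e-3p has 34 reads in HFD and 1 in NCD libraries, while the other 5 members overlap between diets.

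Summed over the 7 members other than miR-344d-3p, the level was 28.06, 27.6 and 52.1 CPM in HFD replicates 1, 2 and 3, against 17.5, 19.8 and 27.2 CPM in NCD replicates 1, 2 and 3. This sum averaged 35.9 ± 14.0 CPM over HFD libraries and 21.5 ± 5.04 CPM over NCD libraries (SD, n = 3 each), a ratio of 1.67. Most of it was miR-344-3p. The 6 low members together reached 3.01, 3.16 and 5.73 CPM in HFD and 2.37, 1.74 and 3.34 CPM in NCD, which overlapped. Both sums include miR-344e-3p, which met the read minimum through its HFD reads alone. It averaged 1.12 CPM over HFD and 0.0342 CPM over NCD libraries. Both also include miR-344g-3p, which met the minimum through its NCD 3 reads alone, so the sums are descriptions only.

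The make-up of the family does not depend on library scaling. Of the 5479 family reads in all libraries, miR-344d-3p took 68.3% and miR-344-3p 28.1%, and each other row took under 1%. The share of miR-344d-3p was 67.6%, 80.2% and 70.9% in HFD replicates 1, 2 and 3, against 69.4%, 63.3% and 45.9% in NCD replicates 1, 2 and 3. NCD 1 lay above HFD 1, so the shares overlapped. The HFD mean was 72.9% ± 6.54 and the NCD mean 59.5% ± 12.2 (SD, n = 3 each), a difference of 13.4 percentage points, which was 6.54 points without NCD 3. In NCD 3 the share of miR-344-3p was 47.5% (exact binomial 95% interval 43.7% to 51.2%) and that of miR-344d-3p 45.9% (42.2% to 49.6%), so these members could not be ordered there. In the other 5 libraries miR-344d-3p lay above miR-344-3p, with 1.89 to 4.58 reads for each miR-344-3p read. Such levels of different miRNAs also carry the ligation preferences of small RNA libraries. Because miR-344d-3p was chosen for its difference, the gap between its fold change and that of miR-344-3p was not tested.

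**Figure D4:**
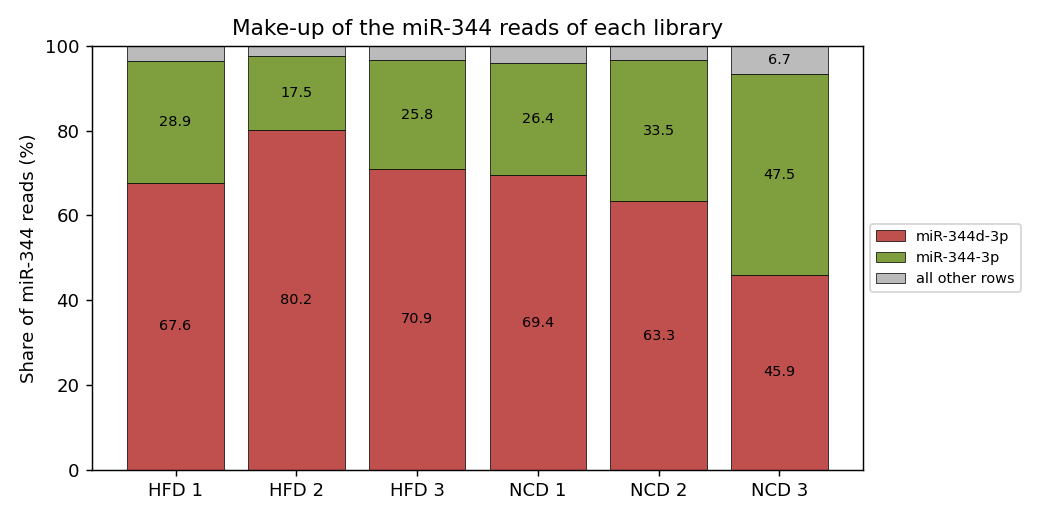
Share of the miR-344 reads of each library, in percent, held by miR-344d-3p, miR-344-3p and all other miR-344 rows. miR-344d-3p holds 67.6% to 80.2% in HFD libraries and 45.9% to 69.4% in NCD libraries.

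miR-410-3p, from the imprinted Dlk1-Dio3 region, was compared because it shares the seed of miR-344d-3p outside the family. It had 29.7, 29.3 and 55.4 CPM in HFD replicates 1, 2 and 3, against 21.4, 33.3 and 48.2 CPM in NCD replicates 1, 2 and 3. The diets overlapped. Its log2 fold change was 0.14 ± 0.40 (SE), with an edgeR adjusted p of 0.918. Its HFD mean was 38.1 ± 14.9 CPM and its NCD mean 34.3 ± 13.4 CPM (SD, n = 3 each), a difference smaller than the spread of either diet.

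Likeness of pattern was measured as the root-mean-square difference of mean-centred log2 CPM profiles over the 6 libraries, a description that shares the libraries and their scaling. Outside the family the profiles nearest to miR-344d-3p were those of miR-212-5p (0.36), miR-21a-5p (0.38), miR-1947-5p (0.51), a predicted miRNA with a number only (0.52) and miR-431-3p (0.53). The median over all tested miRNAs was 0.95. miR-1947-5p averaged 5.46 ± 0.522 CPM over HFD and 3.02 ± 0.854 CPM over NCD libraries, and miR-431-3p 11.2 ± 3.62 CPM over HFD and 5.56 ± 0.135 CPM over NCD libraries (SD, n = 3 each). Neither passed the test (edgeR adjusted p = 0.505 and 0.48). The log2 fold changes of miR-212-5p and miR-21a-5p were 1.12 ± 0.37 and 1.30 ± 0.32 (SE), also without passing (edgeR adjusted p = 0.363 and 0.184). That of the predicted miRNA was 2.61 ± 0.69 (SE, edgeR adjusted p = 0.184). All 5 were picked for nearness to miR-344d-3p, which was itself chosen for its diet difference. The direction of their fold changes therefore follows largely from that choice, and these values are descriptions only. The nearest profiles to miR-344-3p were miR-96-5p (0.20), miR-1191a (0.20), miR-409-5p (0.21), miR-411-5p (0.23) and miR-3068-5p (0.24), none of which is in the first set, and the median was 0.67. miR-344-3p and miR-344d-3p stood 0.67 apart, which ranked 33 among the profiles by nearness to miR-344d-3p and 203 by nearness to miR-344-3p, a distance equal to the median there.

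Cell type marker lists were set beside the family, since less RNA per cell and fewer cells of a type cannot be told apart in bulk islets. Of 9 neural miRNAs, listed because the family is known from brain, 7 were tested, 6 had a positive and 1 a negative fold change, 0 passed, and the median log2 fold change was 0.15. Their summed level was 280 to 975 CPM in HFD libraries and 509 to 696 CPM in NCD libraries. Which cells of the islet samples made these miRNAs was not tested. HFD 2, with the second highest miR-344d-3p level and the highest share of it in the family, had the highest neural sum, and HFD 3, with the highest miR-344d-3p level, had the lowest. The 9 islet endocrine miRNAs, all tested, had 7 positive and 2 negative values and a median of 0.18, with 0 passing. Their sum ran from 780245 to 991646 CPM in HFD libraries and from 440247 to 946774 CPM in NCD libraries, lowest in NCD 3. The TMM factor of 1.73 lowers every CPM value of NCD 3. Whether endocrine cell content differed between libraries was not tested. The acinar, endothelial, leukocyte, erythroid and liver and muscle lists had 12 tested members, all with negative fold changes and 0 called. Over all 406 tested miRNAs the median log2 fold change was 0.02 and 0.246% were called, while the share with negative values was not computed. Some listed members are arms of the same miRNA, as for miR-126a, so they are not independent. The fibroblast and smooth muscle list had 1 of 5 positive and 0 called. Acinar sums were 20.2 to 205 CPM in HFD and 111 to 418 CPM in NCD, and liver and muscle sums 48.3 to 130 CPM in HFD and 127 to 885 CPM in NCD. The liver and muscle sum of 885 CPM was that of NCD 1 alone. NCD 2 and NCD 3 had 127 and 131 CPM, near HFD 2 with 130 CPM. The endothelial sums were 299.8 to 434 CPM in HFD libraries and 346 to 748 CPM in NCD libraries, and the leukocyte sums 6.18 to 13.3 CPM in HFD libraries and 13.02 to 30.4 CPM in NCD libraries. The erythroid sums were 41.3 to 134 CPM in HFD libraries and 33.6 to 127 CPM in NCD libraries, and the fibroblast and smooth muscle sums 1329 to 4975 CPM in HFD libraries and 1514 to 2978 CPM in NCD libraries. Each listed marker had reads in at least 1 library. The part of other cell types in the miR-344 values was not tested.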

How the data were processed

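Per the labels' protocols, total RNA from islets was isolated on RNeasy mini columns and made into NEBNext small RNA libraries. Such columns keep short RNA incompletely. The deposited table holds raw read counts per mature miRNA, per the file headers. The authors' deposited TPM values equalled CPM on library totals to a relative difference of 4.61e-09. No label or header used here names the aligner, counting tool, build or miRNA release. Counts were fitted over the whole table with edgeR 4.0.16 in R 4.3.3: filterByExpr with a minimum count of 10, TMM factors, the quasi-likelihood fit (legacy = FALSE) and test with diet as the only term, and Benjamini-Hochberg adjustment over 406 miRNAs, with a threshold of 0.05. DESeq2 1.42.0, limma 3.58.1, other size factors and filters, and leaving out libraries were alternatives. Printed CPM values use full library totals times the TMM factor. Profile likeness used log2(CPM + 0.5). The fit was tested on simulated data. Hairpins come from RefSeq GRCm38.p6 and GENCODE M21. The members and lists were chosen with earlier results of these data known. The named miRNAs are every member, seed mates, the 5 nearest profiles to each of the most abundant members, and the markers. Marker lists are described by counts, with the leading miRNA printed for the islet endocrine list only.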

Additional observations from a re-analysis of the deposited data

How the results depend on the processing

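Of 18 alternatives, all kept the fold changes of miR-344d-3p (1.22 to 1.87 on the log2 scale) and miR-344-3p (0.32 to 0.94) positive. The adjusted p of miR-344-3p ranged from 0.448 to 0.886. miR-344d-3-5p ranged from 0.26 to 4.12 over 16, as it fell below the filter at a mean of 100 counts and when the most abundant miRNA was left out. Its adjusted p was 0.57 to 0.939. Leaving out 1 library gave 1.35 to 1.87 for miR-344d-3p, 0.34 to 0.94 for miR-344-3p and 0.26 to 4.12 for miR-344d-3-5p. The log2 ratio of the summed other members, 0.74, was 0.29 with library totals only, a scaling that moved the median of all miRNAs to -0.37, and 0.34 to 0.94 without 1 library. The share difference of 13.4 points ran from 6.54 to 18.3. The count of called miRNAs is over the whole table, and the 1 called at first was not a family member. The count was 0 with library totals only and with limma-trend at either pseudocount, which also used plain library totals without TMM. It was 8 without a filter. With DESeq2 it was 3, and without 1 library 0 to 4. The cause was not tested. Across miRNAs, same-numbered libraries deviated from their diet means with correlations of 0.17, -0.24 and 0.35. These values were not set against differently numbered libraries, so they do not decide whether the numbers mark a pairing. With the replicate block the log2 fold changes were 0.72 for miR-344-3p, 1.09 for miR-344d-3-5p and 1.60 for miR-344d-3p. In that fit 1 miRNA of the whole table was called. The legacy quasi-likelihood setting and the sum without miR-344-3p were added after seeing the data. Members under 40 reads in all rest on single reads, which limits any statement on them.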
